A study of Mus musculus with 6 samples.

Results

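The 10 genes described here are 6 members of the lymphocyte antigen 6 (Ly6) family (Ly6a, Ly6c1, Ly6c2, Ly6e, Ly6g and Ly6i), 3 genes widely used to mark macrophages (Adgre1, Cd14 and Cd68) and the chemokine receptor-like gene Ccr1l1. They were picked by name, without a threshold on their values, from the 54532 genes of the deposited expression table. The study grew monocytes from the bone marrow of C57BL/6 mice aged 6 to 8 weeks together with ID8, a mouse ovarian cancer cell line, and sequenced polyadenylated RNA. The labels call the cells BMDM, for bone marrow-derived macrophage. In 3 libraries the treatment was 40 μM cisplatin and in 3 it was PBS. Per the study's account the cisplatin was given to the ID8 cells before the co-culture, so that the myeloid cells of both groups shared strain, medium and exposure to the tumour line. The libraries are therefore called cisplatin and PBS libraries below, and a change is always cisplatin relative to PBS. The study's methods speak of biological replicates in the RNA-seq comparison. The sources used here do not say that the 3 libraries of a group came from separate mice or cultures. The p-values therefore measure the spread between these libraries, which may be technical.

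Ly6 proteins are small, cysteine-rich proteins that are mostly tethered to the outer cell surface by a lipid anchor, and most of the mouse genes lie side by side on chromosome 15. Several of them are everyday surface markers. Ly6C, the product of Ly6c1 and Ly6c2, is high on classical inflammatory monocytes and is lost as they turn into patrolling monocytes or tissue macrophages. Ly6G marks neutrophils, and Ly6A, also known as Sca-1, marks blood stem cells and is induced by interferons in many cell types. Adgre1 encodes F4/80, an adhesion G protein-coupled receptor that appears as monocytes mature. Cd14 encodes the lipid-anchored co-receptor that hands bacterial lipopolysaccharide to Toll-like receptor 4, and Cd68 encodes a heavily glycosylated protein of the endosomal and lysosomal membrane.

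Values are FPKM as deposited, that is, fragments per kilobase of gene model per 1000000 reads of a library total. The total implied by the values was between 103.7% and 104.1% of the recovered reads in the cisplatin libraries. In the PBS libraries it was between 97.4% and 98.7%, so the total was not the plain number of these reads. The 6 libraries held from 15776238 to 17924686 reads, recovered from the steps in the deposited values. Correlations of log2 values between libraries ran from 0.98 to 0.99 within a group and from 0.87 to 0.88 between groups. Markers of other cells also differed between the groups. The summed level of 18 ID8 and mesothelial genes was between 250.5 and 271 FPKM in the cisplatin libraries and between 1349 and 1447 FPKM in the PBS libraries, while 20 genes expressed across leukocytes summed to between 3669 and 3799 FPKM against between 2269 and 2376 FPKM. Of the ID8 and mesothelial genes, Epcam, Krt7, Lrrn4, Muc16, Pax8 and Igfbp5 were below 0.5 FPKM in every library and are named for that. The 16 neutrophil and granulocyte precursor genes summed to between 9973 and 10201 FPKM with cisplatin and between 6054 and 6172 FPKM with PBS, the 15 lymphocyte genes to between 476 and 485 FPKM and between 219 and 226 FPKM, and the 8 endothelial genes to between 19.8 and 21.2 FPKM and between 13.9 and 14.7 FPKM. In RNA from mixed cells, fewer cells of a type and less RNA per cell cannot be told apart. The part of these differences in the results below was not tested, other than through the scalings given with them.

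The Ly6 coding sequences differ in how closely they resemble each other, which bears on how well short reads separate the genes. The first 60 coding bases of the 6 genes are shown from the GENCODE mouse transcripts (build GRCm38.p6), 5′ to 3′, with capitals marking bases that differ from Ly6c2.
Ly6a: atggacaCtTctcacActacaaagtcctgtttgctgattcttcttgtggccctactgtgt
Ly6c1: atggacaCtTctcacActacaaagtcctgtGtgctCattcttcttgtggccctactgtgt
Ly6c2: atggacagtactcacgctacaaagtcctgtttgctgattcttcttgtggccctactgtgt
Ly6e: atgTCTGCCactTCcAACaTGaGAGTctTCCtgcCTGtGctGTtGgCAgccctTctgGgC
Ly6g: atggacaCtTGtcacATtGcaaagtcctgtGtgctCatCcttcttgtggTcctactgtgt
Ly6i: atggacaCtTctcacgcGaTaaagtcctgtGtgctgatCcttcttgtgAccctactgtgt
Ly6c1 and Ly6c2 are the closest pair over their whole coding sequences, with 387 of 396 bases in common (97.7%), followed by Ly6a and Ly6i (86.4%). Ly6e is the most distant member, with between 50.5% and 53.8% identity to the other 5. Of all 50-base stretches in its transcripts, Ly6c1 shared 32.8% exactly with at least 1 other gene, Ly6a 19.0%, Ly6c2 14.5%, Ly6i 4.76% and Ly6g 0.448%, while Ly6e shared none. At 100 bases the shares were 10.1% for Ly6c1, 5.81% for Ly6c2 and 1.45% for Ly6a. The Ly6c2 stretches include those of a transcript of 2680 bases, while its longest protein-coding transcript has 822 bases. Its place in this order therefore depends on the transcripts counted. Reads from the shared stretches cannot be assigned to 1 gene by sequence alone, so the split of signal between Ly6c1, Ly6c2 and Ly6a is less certain than that of Ly6e.

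In the co-cultures, the stem cell antigen gene Ly6a and the monocyte antigen gene Ly6c2 moved in opposite directions, each by more than 2-fold: Ly6a fell and Ly6c2 rose. Scaled to leukocyte or Y-linked genes, Ly6c2 was still higher but by less than 2-fold and not called. On the deposited scale Ly6i, Ly6c1 and Ly6e were lower without reaching the fold threshold, and no difference was detected for Ly6g. Under either of those scalings Ly6i, Ly6c1 and Ly6e were called downregulated. Ly6g was then lower by the adjusted p but not called. Adgre1, Cd14 and Cd68 were all higher with cisplatin, although the directions of Cd14 and Cd68 turned when the libraries were scaled to leukocyte genes or to Y-linked genes, and that of Adgre1 when they were scaled to Y-linked genes. Over all tested genes these scalings moved the median from -0.0011 to -0.69 and to -0.82. Of the 10 genes, 9 passed the filter on low values and were tested. Genes were called when limma's Benjamini-Hochberg adjusted p, over all tested genes, was under 0.05 and the log2 fold change was at least 1 in size. By that rule 1 of the 9 was upregulated, where 4.67% of all 13441 tested genes were, and 1 was downregulated, where 11.3% of all tested genes were. By the adjusted p alone, 4 were higher (background 32.9%) and 4 were lower (background 35.1%), so that 8 of 9 passed beside 68.0% of all tested genes. The groups did not overlap for 8 of the 9 genes, against 72.4% of all tested genes, so that a difference of some size was common in this comparison and is not a result about these genes.

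**Figure D1:**
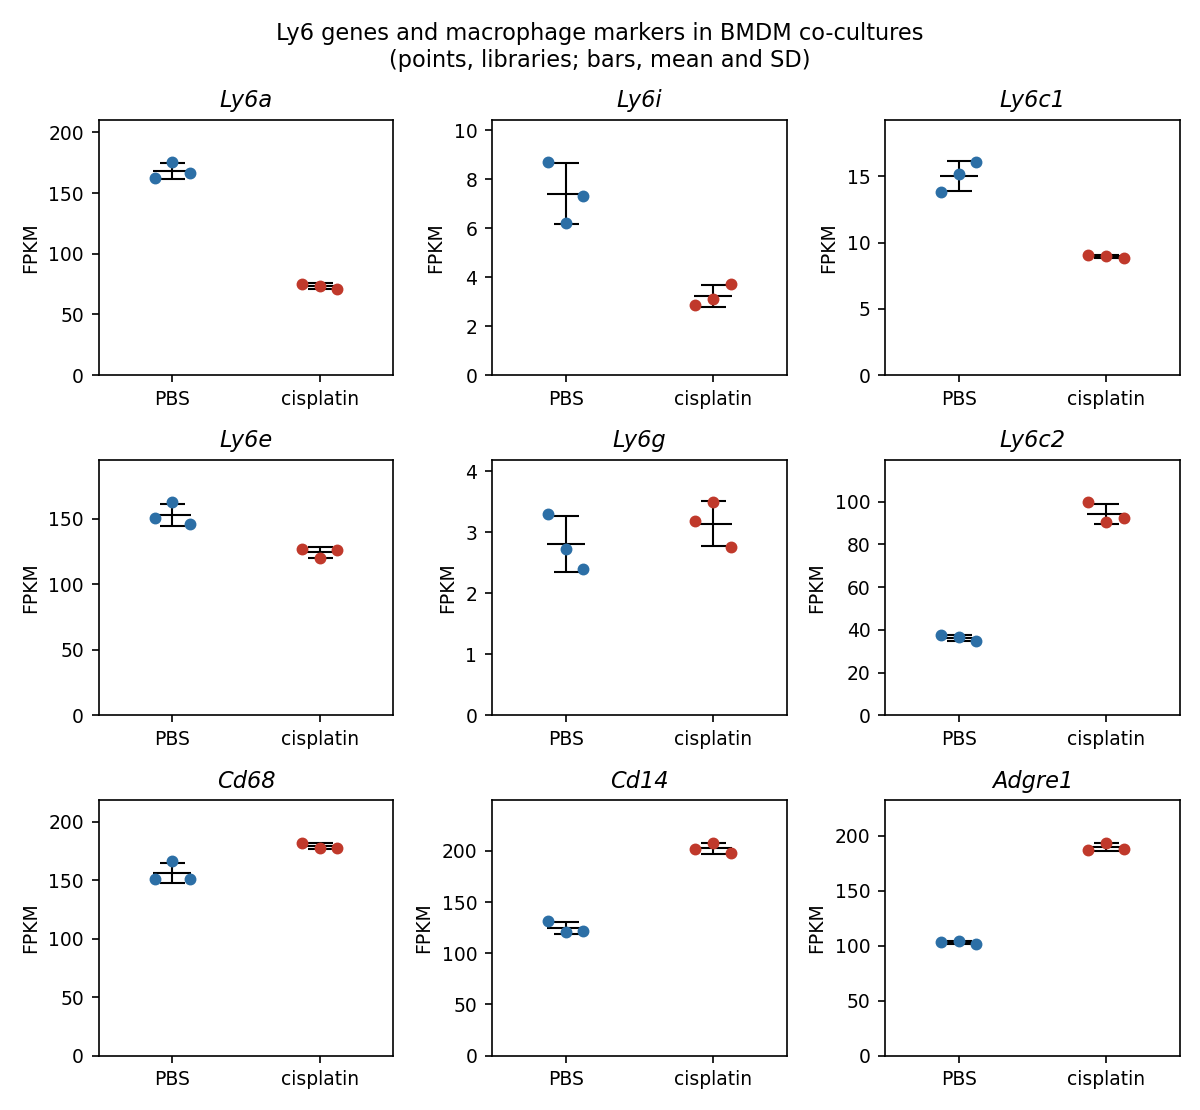
FPKM in the 3 cisplatin and 3 PBS libraries on linear axes that start at 0, for the 9 tested genes, with each point 1 library and bars for the mean and SD. Ly6c2, Adgre1, Cd14 and Cd68 were higher in every cisplatin library than in any PBS library, Ly6a, Ly6c1, Ly6e and Ly6i were lower, and Ly6g overlapped, while scaling to Y-linked genes turned the direction of Adgre1, Cd14 and Cd68 and scaling to leukocyte genes that of Cd14 and Cd68.

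Ly6a (ENSMUSG00000075602, chr15:74994877-74998031, minus strand, protein coding) was called downregulated. It stood at 75.3, 73.7 and 70.6 FPKM in the cisplatin libraries and at 163, 175 and 167 FPKM in the PBS libraries. The lowest PBS library was thus more than 2-fold above the highest cisplatin library, and the groups were far apart. The means were 73.2 ± 2.39 and 168 ± 6.51 FPKM (SD, n = 3 each), and the log2 fold change was -1.19 (SE 0.042, limma adjusted p = 7.43e-07). Ly6i (ENSMUSG00000022586, chr15:74979534-74983430, minus strand), a less studied family member expressed in myeloid cells and the closest in coding sequence to Ly6a, had a similar proportional change at a much lower level. Its values were 2.85, 3.11 and 3.72 FPKM with cisplatin and 8.70, 6.22 and 7.31 FPKM with PBS, from between 56 and 178 reads a library. All 3 PBS libraries were higher than any cisplatin library, but they differed more among themselves than those of Ly6a. Its log2 fold change of -0.99 (SE 0.13, limma adjusted p = 0.000384) fell just short of the fold threshold, and it was called when cisplatin library 3 was left out (-1.07) or PBS library 2 was left out (-1.09). It was also called with a pseudocount of 0.1 (-1.17), TPM rescaling (-1.13), voom on the recovered reads (-1.11), scaling to leukocyte genes (-1.66) and scaling to Y-linked genes (-1.79). Under the last 2 scalings Ly6a was at -2.01 and -2.17. The 2 genes had nearly the same ratio of mean FPKM, PBS over cisplatin, at 2.30 for Ly6a and 2.30 for Ly6i.

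Ly6e (ENSMUSG00000022587, chr15:74955051-74959905, plus strand) is an interferon-inducible member that affects the entry of several viruses into cells. With the gene lengths of the deposited table, it had the highest FPKM of the 6 Ly6 genes in the cisplatin libraries. Its level was 127, 119.8 and 126 FPKM in the cisplatin libraries and 151, 163 and 146 FPKM in the PBS libraries. The PBS libraries were higher throughout, by a small margin beside the change of Ly6a. The means were 124 ± 4.01 and 153 ± 8.48 FPKM, and the log2 fold change was -0.30 (SE 0.049, limma adjusted p = 0.00139), under the fold threshold. Under scaling to leukocyte genes it was -1.12, under scaling to Y-linked genes it was -1.28, and Ly6e was called downregulated in both.

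Ly6c2 (ENSMUSG00000022584, chr15:75108158-75111970, minus strand), which encodes the main Ly6C antigen of monocytes, was called upregulated. Its level was 99.6, 90.4 and 92.5 FPKM in the cisplatin libraries and 37.7, 36.6 and 34.9 FPKM in the PBS libraries. Every cisplatin library was more than 2-fold above every PBS library. The means were 94.2 ± 4.81 and 36.4 ± 1.38 FPKM, a ratio of 2.59, and the log2 fold change was 1.35 (SE 0.049, limma adjusted p = 8.41e-07). Scaled to leukocyte genes, it was 0.54 with an adjusted p of 0.000179, above PBS but no longer past the fold threshold. Scaled to Y-linked genes, it was 0.38 with an adjusted p of 0.000161. The near-identical gene Ly6c1 (ENSMUSG00000079018, chr15:75044018-75048830, minus strand), which is also expressed in endothelium, went the other way. It stood at 9.08, 8.97 and 8.85 FPKM with cisplatin and at 13.8, 15.2 and 16.1 FPKM with PBS. The groups did not overlap, and the log2 fold change of -0.68 (SE 0.060, limma adjusted p = 5.65e-05) was under the fold threshold. Scaled to leukocyte genes it was -1.44 and scaled to Y-linked genes -1.59, and Ly6c1 was called downregulated in both.

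The 250 bases just upstream of the RefSeq start of each gene are shown because this pair of genes differs so little in coding sequence and yet moved apart. Both are from build GRCm38.p6 and run 5′ to 3′ on the minus strand, Ly6c1 from chr15:75048838-75049087 and Ly6c2 from chr15:75111972-75112221, and capitals mark the bases that do not match the other gene in the alignment.
Ly6c1: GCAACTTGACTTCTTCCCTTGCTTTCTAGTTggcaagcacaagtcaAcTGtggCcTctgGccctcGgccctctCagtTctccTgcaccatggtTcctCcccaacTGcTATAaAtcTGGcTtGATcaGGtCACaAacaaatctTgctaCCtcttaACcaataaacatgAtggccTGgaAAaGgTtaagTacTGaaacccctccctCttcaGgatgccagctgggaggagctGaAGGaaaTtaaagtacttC
Ly6c2: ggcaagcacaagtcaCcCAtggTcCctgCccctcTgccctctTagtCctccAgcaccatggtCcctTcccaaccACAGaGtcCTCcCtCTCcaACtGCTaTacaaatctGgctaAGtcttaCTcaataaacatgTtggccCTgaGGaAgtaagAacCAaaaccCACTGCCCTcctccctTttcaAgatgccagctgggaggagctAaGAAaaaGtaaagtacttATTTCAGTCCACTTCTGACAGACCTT
The 2 upstream sequences matched in 164 of 228 aligned columns (71.9%), far less than the coding sequences. On either strand of the 300-base promoter windows of Ly6c1, Ly6c2, Ly6g and Cd68, which run from 250 bases before to 50 after the start, neither the gamma-activated site, searched as TTCNNNGAA, nor the paired core of the interferon-stimulated response element, searched as GAAANNGAAA, was found. These letters occur in 8.30% and 3.44% of all 32851 windows in the table, and their absence says only that they are not in these windows. No window was searched for Ly6a, Ly6e, Ly6i, Adgre1 or Cd14. The window listed for Ccr1l1 held 1 gamma-activated site but lies 8307 bases from the start of the gene in the expression table.

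Ly6g (ENSMUSG00000022582, chr15:75155240-75159126, plus strand), the neutrophil antigen gene, was low throughout. It was at 3.18, 3.49 and 2.76 FPKM with cisplatin and at 3.30, 2.73 and 2.40 FPKM with PBS, from between 35 and 55 reads a library. The groups overlapped, since the highest PBS library was above 2 of the cisplatin libraries. The log2 fold change was 0.13 with a 95% interval from -0.14 to 0.39 (limma adjusted p = 0.349), and scaling to leukocyte genes turned it to -0.49 and scaling to Y-linked genes to -0.61. On the deposited scale a difference was thus not detected at this depth. Under the leukocyte and Y-linked scalings Ly6g was lower, with limma adjusted p of 0.00538 and 0.000827, though not called. Of the other 15 neutrophil and granulocyte genes on the list, 10 were upregulated and 1 was downregulated, and their median change was 1.63 on the log2 scale. Under scaling to leukocyte genes 4 were upregulated and 1 downregulated (median 0.82), and under scaling to Y-linked genes 3 and 1 (median 0.66). S100a8 and S100a9, which encode calprotectin and were named after their values were seen, had means of 2581 and 5233 FPKM with cisplatin and 1423 and 3105 FPKM with PBS. They hold most of the summed level of the neutrophil and granulocyte list given above. The study counts both among its markers of myeloid cells as a whole, so their level is not particular to granulocytes.

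The make-up of the Ly6 signal shifted accordingly. The summed FPKM of the 6 genes was 307 ± 9.20 in the cisplatin libraries and 383 ± 13.6 in the PBS libraries. Ly6a made up 23.8% ± 0.72 of that sum with cisplatin and 43.9% ± 0.77 with PBS, and Ly6c2 made up 30.7% ± 0.64 and 9.51% ± 0.43 (SD, n = 3 each). The share of Ly6e was nearly level, at 40.5% ± 0.76 and 39.96% ± 0.85. Ly6c1 held 2.92% and 3.93%, Ly6i 1.05% and 1.94%, and Ly6g 1.03% and 0.73%. Among these 6 genes Ly6a thus had the largest share in the PBS libraries and Ly6e in the cisplatin libraries, where Ly6c2 came next. The order, the sum and the shares all rest on the gene lengths used for FPKM, whereas the fold change of a single gene depends on them through the pseudocount alone. For Ly6c2 that length was 2740 bases, while its longest protein-coding transcript has 822 bases. With the longest protein-coding transcript of each gene as its length, an alternative chosen after seeing the data, the sum was 637 ± 23.0 FPKM with cisplatin and 628 ± 21.5 FPKM with PBS, and the groups overlapped. Ly6c2 then made up 49.3% ± 0.74 with cisplatin and 19.3% ± 0.80 with PBS, Ly6a 14.5% ± 0.49 and 33.8% ± 0.71, and Ly6e 32.4% ± 0.65 and 40.5% ± 0.85. The gain of Ly6c2 and the loss of Ly6a within the sum were thus present with either length. The lower sum with cisplatin, the level share of Ly6e and the order of the shares were not. With protein-coding transcript lengths the largest share was that of Ly6e in the PBS libraries and of Ly6c2 in the cisplatin libraries.

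**Figure D2:**
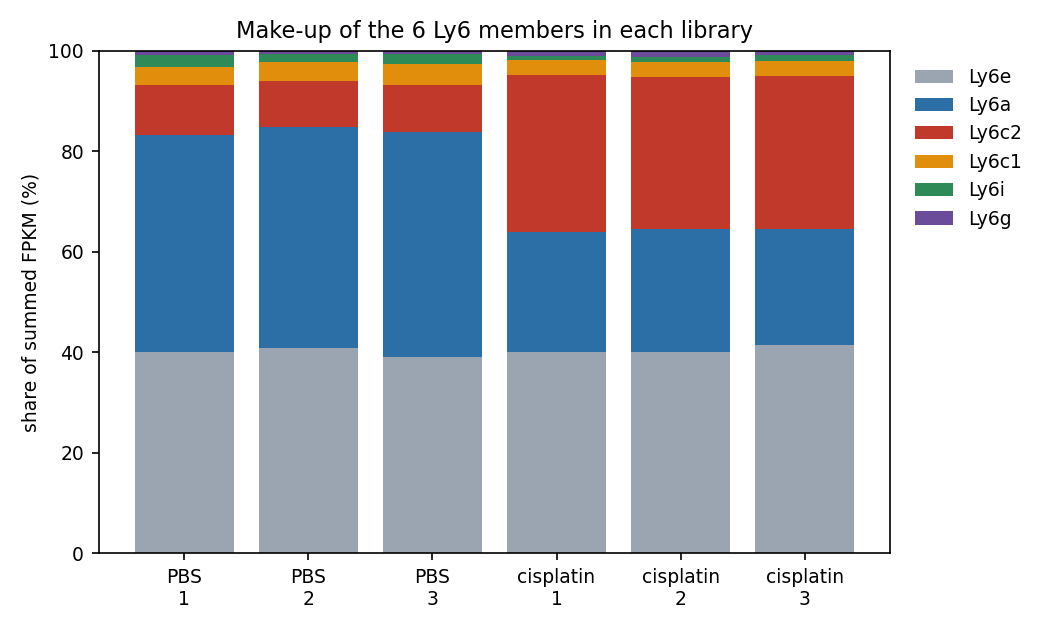
Share of the summed FPKM of the 6 Ly6 genes, in percent, held by each gene in each of the 6 libraries, as bars stacked to the whole, with the gene lengths of the deposited table. Ly6c2 grew from 9.51% to 30.7% of the sum and Ly6a shrank from 43.9% to 23.8%, while Ly6e was at 39.96% with PBS and 40.5% with cisplatin, a level share that was not seen with protein-coding transcript lengths (40.5% and 32.4%).

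Ratios of 2 genes within a library depend little on how the libraries are scaled, through the pseudocount alone. The log2 ratio of Ly6c2 to Ly6a, on the log2(FPKM + 1) scale, was 0.40, 0.29 and 0.39 in the cisplatin libraries and -2.08, -2.23 and -2.22 in the PBS libraries. Ly6c2 was therefore above Ly6a in every cisplatin library and below it in every PBS library. The difference of 2.54 gave p = 0.1 in an exact two-sided permutation test, the smallest p that 3 against 3 libraries allow, and the same holds for all 5 ratios tested, before and after Benjamini-Hochberg adjustment. Ly6c2 to Ly6c1 was 3.25 ± 0.061 with cisplatin and 1.22 ± 0.16 with PBS, a difference of 2.03. Ly6c2 also gained on the maturation marker Adgre1, but by less: the log2 ratio was -1.004 ± 0.093 with cisplatin and -1.48 ± 0.046 with PBS, a difference of 0.47. In each of these 3 ratios every cisplatin library was above every PBS library.

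The genes around the Ly6 members on chromosome 15 were also listed. From Psca to Gpihbp1 (chr15:74714839-75599481), a region chosen after its values were seen, there were 50 genes in the table, of which 20 were at 0 in all libraries and 14 were tested. On the deposited scale and by the adjusted p alone, 5 were higher and 5 lower, and whether they cluster was not tested. On the side of Ly6d, Slurp1, which encodes a secreted Ly6-like protein, was at -0.64 and lay between Them6 (0.44) and Lynx1 (0.73). The values of Them6 and Lynx1 turned to -0.32 and -0.030 under scaling to leukocyte genes and to -0.47 and -0.18 under scaling to Y-linked genes, as did that of Ly6d, given below. The other 4 lower genes, Ly6e, Ly6i, Ly6a and Ly6c1, are consecutive among the tested genes. Ly6c2 comes after them, past the low pseudogene Gm5960, and beyond Ly6c2 lies I830127L07Rik (ENSMUSG00000102051, chr15:75131377-75135128, minus strand), annotated as a transcribed unprocessed pseudogene and likewise named after its values were seen. It was at 57.7, 55.6 and 58.6 FPKM with cisplatin and at 9.56, 11.4 and 13.6 FPKM with PBS. On the deposited scale that is a larger change than that of any of the 10 genes, with a log2 fold change of 2.23 (SE 0.11, limma adjusted p = 3.42e-06), and it stayed upregulated at 1.44 under scaling to leukocyte genes and at 1.29 under scaling to Y-linked genes. Its transcript aligned to that of Ly6i with 84.7% identity and to that of Ly6c2 with 79.5%. Of its sequence, 9.58% of the 50-base stretches and none of the 100-base stretches were shared exactly with any other gene, so most of it can be told apart from Ly6c2.

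**Figure D3:**
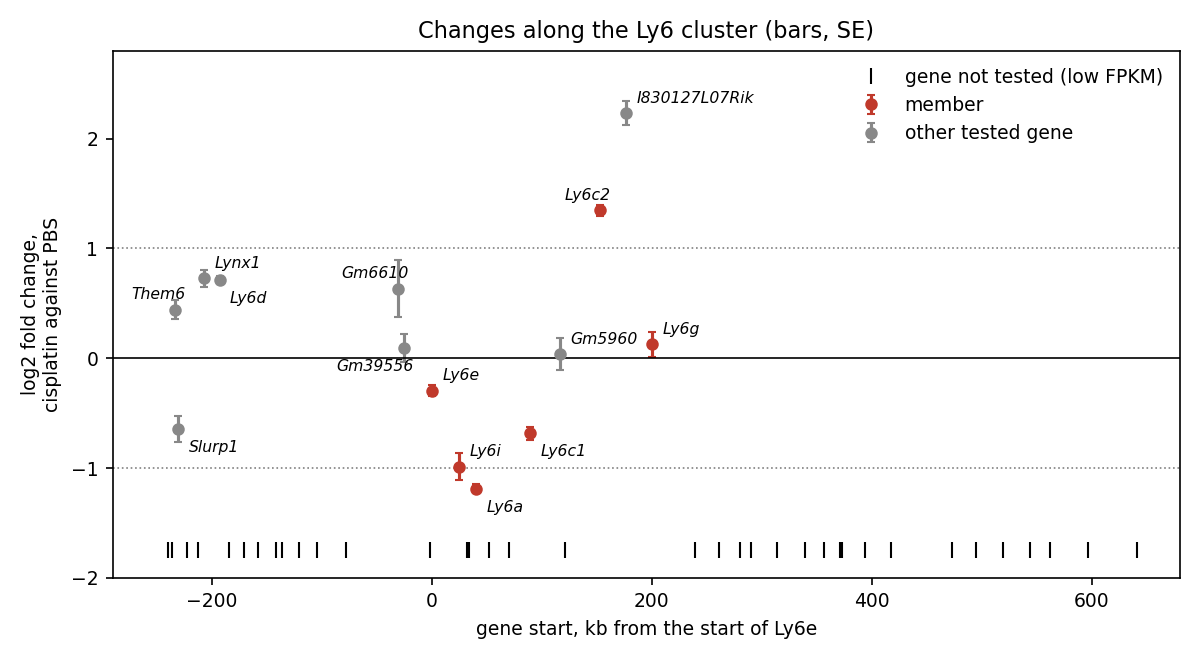
Log2 fold change, cisplatin relative to PBS, of the tested genes between Psca and Gpihbp1 against the distance of each gene start in kilobases from the start of Ly6e, with bars of 1 SE, dotted lines at the fold threshold and ticks for genes too low to test. The run from Ly6e to Ly6c1 lies below 0, with Ly6a lowest at -1.19, and is followed by Ly6c2 at 1.35 and I830127L07Rik at 2.23.

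Of the wider Ly6/uPAR superfamily, 35 of 37 listed genes were in the table and 10 were tested, 6 of them the Ly6 genes above. Of these 10, 2 were upregulated and 1 was downregulated. Their median was -0.085 on the log2 scale, beside -0.0011 for all tested genes. Scaled to leukocyte genes, none was upregulated and 4 were downregulated (median -0.73), and under scaling to Y-linked genes none and 5 (median -0.83). All tested genes had medians of -0.69 and -0.82 under these scalings, with 4048 and 5087 of 13441 downregulated, so the family lay near that background. The second upregulated gene was Plaur, the receptor for the protease urokinase, which went from 31.9 ± 3.67 to 73.3 ± 4.72 FPKM (log2 fold change 1.18, limma adjusted p = 2.52e-05) and stood at 0.37 under scaling to leukocyte genes. Ly6d, a marker of early B cells and some epithelia that was named after its values were seen, was the most abundant family member outside the 10 genes, at 229 ± 8.95 FPKM with cisplatin and 139 ± 1.82 FPKM with PBS. Its log2 fold change of 0.71 (limma adjusted p = 4.60e-06) turned to -0.11 under scaling to leukocyte genes and to -0.27 under scaling to Y-linked genes. Gpihbp1, which carries lipoprotein lipase to capillary walls, was listed at 0 in every library, and Cd59a, an inhibitor of complement lysis, was too low to test, at a mean of 0.64 FPKM with cisplatin and 0.94 FPKM with PBS.

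Adgre1 (ENSMUSG00000004730, chr17:57358691-57483527, plus strand) had the most uniform difference of the macrophage markers. It was at 187, 194 and 188 FPKM in the cisplatin libraries and at 103, 104 and 102 FPKM in the PBS libraries. The libraries of each group were close together and the groups well apart. Its means of 189.7 ± 3.52 and 103 ± 1.06 FPKM gave a log2 fold change of 0.87 (SE 0.030, limma adjusted p = 6.53e-07), under the fold threshold. Under scaling to leukocyte genes the log2 fold change was 0.053, with a 95% interval from -0.036 to 0.14 and an adjusted p of 0.223, and under scaling to Y-linked genes it turned to -0.11. Relative to other leukocyte transcripts, then, a difference in Adgre1 was not detected. The leukocyte adhesion receptor list held 8 genes, of which 7 were tested, 1 was upregulated and none downregulated. The median of 0.48 turned to -0.28 under scaling to leukocyte genes and to -0.43 under scaling to Y-linked genes, with 1 upregulated and 1 downregulated in both. Both values were above the medians of all tested genes under these scalings, -0.69 and -0.82. The upregulated one was Adgre4, a close relative of Adgre1 on myeloid cells, which went from 0.43 ± 0.12 to 3.57 ± 0.36 FPKM (log2 fold change 1.68, limma adjusted p = 1.11e-05) and stayed called at 1.23 under scaling to leukocyte genes. Adgre5, which encodes CD97, went from 54.1 to 62.8 FPKM, with a log2 fold change of 0.21 that turned to -0.60 under scaling to leukocyte genes and to -0.76 under scaling to Y-linked genes.

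Cd14 (ENSMUSG00000051439, chromosome 18, minus strand) had the highest mean FPKM of the 10 genes with cisplatin, a rank that rests on the gene lengths of the deposited table. Its level was 202, 208 and 198 FPKM in the cisplatin libraries and 132, 121 and 122 FPKM in the PBS libraries. All cisplatin libraries were above all PBS libraries. The log2 fold change was 0.69 (SE 0.044, limma adjusted p = 1.12e-05), under the fold threshold, and it turned to -0.13 under scaling to leukocyte genes and to -0.28 under scaling to Y-linked genes. Its partners did not move as 1 group. Tlr4, the signalling receptor, was at 26.8 FPKM with cisplatin and 27.3 FPKM with PBS (log2 fold change -0.022, 95% interval -0.17 to 0.12, limma adjusted p = 0.765), with -0.82 under scaling to leukocyte genes and -0.97 under scaling to Y-linked genes. Ly96, which encodes the MD-2 subunit that binds lipopolysaccharide on Tlr4, was at 11.5 FPKM with cisplatin and 8.61 FPKM with PBS (0.37, turning to -0.38 under scaling to leukocyte genes and to -0.53 under scaling to Y-linked genes). Within libraries the log2 ratio of Cd14 to Tlr4 was 2.87 ± 0.067 with cisplatin and 2.15 ± 0.16 with PBS, a difference of 0.72 in favour of Cd14. Lbp, the secreted protein that passes lipopolysaccharide to Cd14, fell from 75.9 ± 1.79 to 7.09 ± 0.32 FPKM (log2 fold change -3.25, limma adjusted p = 4.47e-08). Cd180, a Toll-like receptor relative of B cells and macrophages, rose from 6.69 ± 0.67 to 21.0 ± 1.29 FPKM (log2 fold change 1.52, limma adjusted p = 4.00e-06) and stood at 0.76 under scaling to leukocyte genes. On the deposited scale these were the 2 genes called of the 14 tested on the lipopolysaccharide receptor list, whose median was 0.19. Under scaling to leukocyte genes none was upregulated and 3 were downregulated (median -0.55), and under scaling to Y-linked genes none and 4 (median -0.69). The medians over all tested genes were lower, at -0.69 and -0.82, with 4048 and 5087 of 13441 genes downregulated.

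Cd68 (ENSMUSG00000018774, chr11:69664213-69666153, minus strand) had the smallest difference of the 3 macrophage markers on the deposited scale, and the largest of the 3 in size, below PBS, under scaling to leukocyte or Y-linked genes. It was at 182, 178 and 178 FPKM with cisplatin and at 151, 167 and 151 FPKM with PBS. PBS library 2 came close to the cisplatin libraries, yet the groups did not overlap. The log2 fold change of 0.20 (SE 0.046, limma adjusted p = 0.00699) had an adjusted p of 0.0739 under quantile normalisation and turned to -0.62 under scaling to leukocyte genes and to -0.78 under scaling to Y-linked genes. Adgre1 therefore gained on Cd68 within each library: the log2 ratio was 0.081 ± 0.042 with cisplatin and -0.59 ± 0.068 with PBS, a difference of 0.68. Of the 14 genes of the LAMP family and lysosome list, 13 were tested, 2 were upregulated and none downregulated, with a median of 0.47 that turned to -0.35 under scaling to leukocyte genes and to -0.50 under scaling to Y-linked genes. Under both scalings none was upregulated and 2 were downregulated, and the medians of all tested genes were lower, at -0.69 and -0.82. Those called on the deposited scale were the lysosomal proteases Ctsd, from 245 ± 3.98 to 589 ± 4.08 FPKM, and Ctsz, from 238 ± 13.5 to 509 ± 33.0 FPKM. Neither was called under scaling to leukocyte genes, at 0.43 and 0.27, or to Y-linked genes, at 0.28 and 0.11. Lamp1, the main lysosomal membrane protein and a relative of Cd68, went from 295 to 387 FPKM (0.39, turning to -0.43 under scaling to leukocyte genes and to -0.59 under scaling to Y-linked genes), and Lamp2 from 65.7 to 53.9 FPKM (-0.28, and -1.09 and -1.25 under these scalings).

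**Figure D4:**
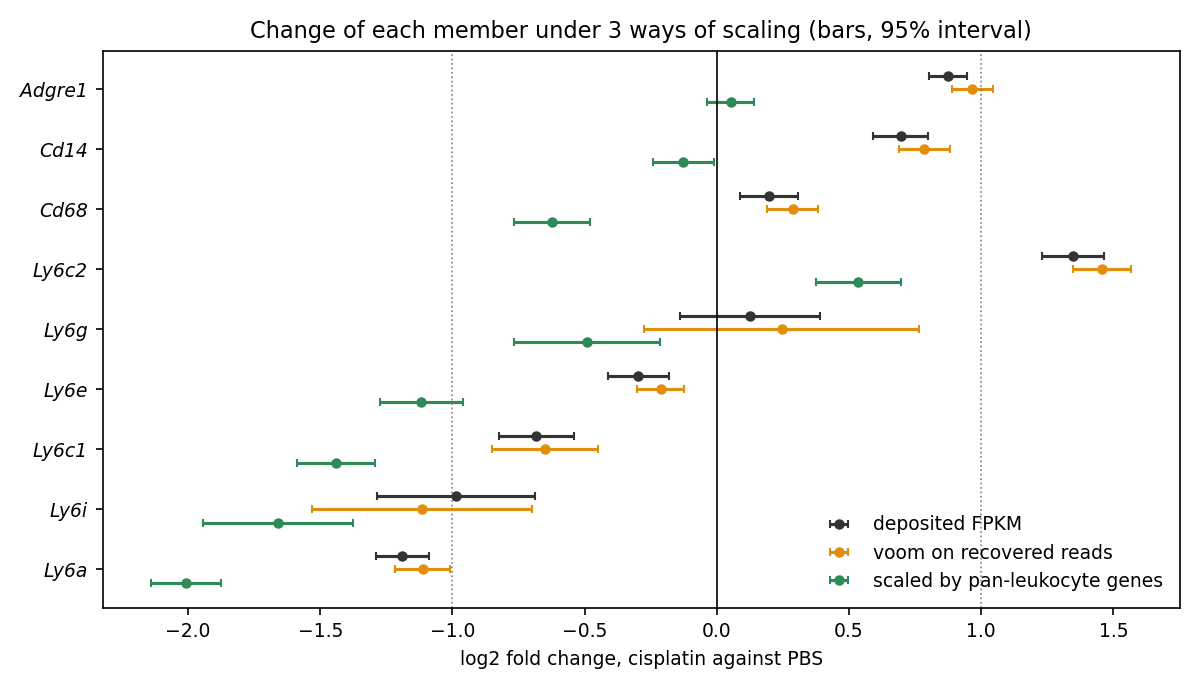
Log2 fold change, cisplatin relative to PBS, of the 9 tested genes with 95% intervals, for the deposited FPKM, for limma voom on the recovered reads and for libraries scaled to 20 leukocyte genes, with dotted lines at the fold threshold. The leukocyte scaling moved the median over all tested genes from -0.0011 to -0.69. Ly6c2 stays above 0 and Ly6a, Ly6c1, Ly6e and Ly6i stay below 0 in each, whereas Ly6g, Cd14 and Cd68 cross to below 0 and Adgre1 comes to 0.053 under the leukocyte scaling.

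Ccr1l1 (ENSMUSG00000064039, chr9:123977243-123978408, minus strand), a chemokine receptor-like gene beside Ccr1, was close to undetected. It had 0, 0 and 5 reads in the cisplatin libraries and 2, 1 and 0 reads in the PBS libraries, and it did not pass the filter. A count of 0 in a library allows up to 3 reads, equal to between 0.151 and 0.166 FPKM in the 3 libraries without a read, which covers counting error only. Its neighbour Ccr1, a receptor for inflammatory chemokines, went from 19.3 ± 1.42 to 52.9 ± 4.69 FPKM (log2 fold change 1.40, limma adjusted p = 6.02e-06) and stood at 0.60 under scaling to leukocyte genes. Of 13 chemokine receptor genes 8 were tested, 4 were upregulated and none downregulated, against 2 upregulated and 2 downregulated under scaling to leukocyte genes and likewise to Y-linked genes. Ccr2, which brings classical monocytes out of the bone marrow and is usually found with high Ly6C, went from 1.20 ± 0.17 to 8.28 ± 0.29 FPKM (log2 fold change 2.08, limma adjusted p = 9.11e-07) and stayed called at 1.48 under scaling to leukocyte genes. Ccr7 and Ccr9 were the others called, with log2 fold changes of 1.004 and 1.69. Under scaling to leukocyte genes Ccr7 was at 0.22 and under scaling to Y-linked genes at 0.065, no longer called in either.

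The label macrophage was checked against marker lists that include these genes. Of 26 mature macrophage genes 23 were tested, 13 were upregulated and none downregulated, and their median was 1.09 on the log2 scale. Adgre1, Cd14 and Cd68 lay below that median, at 0.87, 0.69 and 0.20. Vsig4 and Timd4, markers of resident macrophages, were below 0.5 FPKM in every library. Of 14 classical monocyte genes, the list that holds Ly6c2, 8 were upregulated and 3 downregulated (median 1.11). Vcan, a matrix proteoglycan of monocytes, had the largest change there, from 0.78 ± 0.11 to 15.3 ± 0.78 FPKM. Under scaling to leukocyte genes 5 macrophage genes were upregulated and 1 downregulated (median 0.44), and under scaling to Y-linked genes 4 and 1 (median 0.29). For the monocyte list 2 were upregulated and 3 downregulated under either scaling, with medians of 0.29 and 0.13. All 27 interferon-stimulated genes were lower at the adjusted p and 26 were called, with a median of -2.29, beside which the log2 fold changes of Ly6a and Ly6e, at -1.19 and -0.30, were small. Their summed level was between 494 and 506 FPKM with cisplatin and between 2871 and 2926 FPKM with PBS. Among 12 tested ID8 and mesothelial genes, 9 were downregulated (median -2.13). The lymphocyte list had 4 of 9 tested genes upregulated (median 0.65, turning to -0.14 under scaling to leukocyte genes and to -0.29 under scaling to Y-linked genes), with none upregulated under either scaling. These scalings put the median of all tested genes at -0.69 and -0.82. None of 3 tested endothelial genes was called, against 1 downregulated under either scaling.

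The genes whose values over the 6 libraries lay closest to 3 of the members were found by Euclidean distance between centred log2(FPKM + 1) values. Closest to Ly6a were Tanc1 (distance 0.067), Lima1 (0.067) and Nsmaf (0.074). Nearest to Ly6c2 were Plxnc1 (0.066), Slc20a1 (0.087) and Gnl3 (0.088). For Adgre1 they were Bop1 (0.051), Arhgap31 (0.058) and Cytip (0.061). With 2 groups of 3 libraries, a small distance mainly means a fold change of like size.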

How the data were processed

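RNA-seq of 3 cisplatin and 3 PBS co-culture libraries was analysed from 1 deposited gene table. The authors deposited FPKM values, which are normalised to gene length and to a library total that differs from the recovered reads. Median-of-ratios scaling left the log2 fold change of every tested member as it was. The submitters' processing notes name fastp, HISAT2 2.0.5, featureCounts 1.5.0-p3 and build mm10. The study's methods name LifeScope and DESeq2, and which of these made the table is not settled by the sources used here. Strand settings and the treatment of reads that match several genes are not given in the sources used here, which bears on the similar Ly6 genes. Whole reads were recovered from the FPKM steps (100% of values under 200 reads within 0.02 of a whole number) and used for limma voom as an alternative.

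Genes with at least 1 FPKM in at least 3 libraries were tested on log2(FPKM + 1) with limma 3.58.1 (eBayes with a trend, R 4.3.3) for group alone, with Benjamini-Hochberg adjustment over all 13441 genes. The fold changes given are on that scale, which understates changes of low genes. A gene was called at an adjusted p under 0.05 if its log2 fold change was also 1 or more in size. Log2 ratios within a library were compared by exact permutation (SciPy 1.17.1). Scaling to leukocyte genes or Y-linked genes shifts each library by the median deviation of 20 or 4 genes, so the list is level in its median only. On the deposited scale the leukocyte genes ran from 0.093 to 1.19 and the Y-linked genes from 0.55 to 1.15. Small values under these scalings lie within that spread. The fit was tested on simulated data. Replicates of a group differed beyond counting noise and were counted separately. Coordinates are those of the table; 98.3% of its genes had the same coordinates in GENCODE M21 (GRCm38.p6). Sequences were aligned with Biopython 1.88, and promoter windows are RefSeq's.

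Named genes were all 10 members; of each related list, called genes up to the 4 largest changes plus set partners; of marker lists, up to 3 called genes; and the 3 nearest genes by distance. Any further name was picked with its values in view, including the list genes given as below 0.5 FPKM and the neighbours on chromosome 15. The members and lists were chosen with earlier results of these data known. Of the set partners, 1 gene is not reported here.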

Additional observations from a re-analysis of the deposited data

How the results depend on the processing

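Counts and fold changes were recomputed under 19 alternatives and the 5 ratios under 8, and Ly6g has no value with a filter of 5 FPKM, which it did not pass. Of 324 alternative values, 265 kept their direction and call or, for counts, stayed within 1.5 times, 7 reversed and 52 changed their call or, for counts, their size. Ly6a, Ly6c1, Ly6e and Ly6i stayed lower and Ly6c2 stayed higher in all 19, but most of these could not turn a direction. No filter, the filter at 5 FPKM, median-of-ratios scaling and eBayes without a trend leave the log2 fold change itself unchanged. The same holds for the replicate block, limma treat and the adjusted p alone. Nor could these genes turn when a library was left out, since their groups did not overlap. The 7 reversals were under scaling to leukocyte genes for Ly6g (-0.49), Cd14 (-0.13) and Cd68 (-0.62) and under scaling to Y-linked genes for Ly6g (-0.61), Adgre1 (-0.11), Cd14 (-0.28) and Cd68 (-0.78). These scalings moved the median change over all genes from -0.0011 to -0.69 and -0.82, and quantile normalisation moved it to 0.10. The gene-to-gene ratios kept their direction in all 8, and could not turn when a library was left out, since their groups did not overlap.

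Of the 10 genes, the upregulated number went from 1 to 0 under each of these 2 scalings and to 4 by the adjusted p alone. The downregulated number went from 1 to 2 with a pseudocount of 0.1, TPM rescaling or voom, to 4 under either scaling and to 4 by the adjusted p alone, and ranged from 1 to 2 when a library was left out, the second gene being Ly6i. In the Ly6/uPAR superfamily the upregulated number went from 2 to 0 under either scaling, 1 with limma treat and 4 by the adjusted p alone. The downregulated number went from 1 to 3 with a pseudocount of 0.1, TPM rescaling or voom, 4 under scaling to leukocyte genes, 5 under scaling to Y-linked genes and 5 by the adjusted p alone, and ranged from 1 to 2 when a library was left out.

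Over all genes, 628 upregulated became 973 with a pseudocount of 0.1, 115 under scaling to leukocyte genes, 87 under scaling to Y-linked genes, 1227 with voom, 240 with limma treat and 4424 by the adjusted p alone. The 1514 downregulated became 4048, 5087, 982 and 4721 under scaling to leukocyte genes, scaling to Y-linked genes, limma treat and the adjusted p alone. Upregulated genes made up 29.3% of calls, against 39.3% under quantile normalisation, 39.7% with voom, 2.76% and 1.68% under the 2 scalings, 19.6% with limma treat and 48.4% by the adjusted p alone. The cause of these shifts was not tested.

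The replicate numbers did not pair the libraries, since deviations of same-numbered libraries correlated at -0.10, -0.086 and -0.024. With the replicate number as a block, 1 of the 10 genes was upregulated and 1 downregulated, 2 and 1 in the superfamily, and 625 and 1515 of all genes. Depth limits Ly6g and Ly6i, at no more than 178 reads a library, and Ccr1l1.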
